A study of Mus musculus with 24 samples.

Results

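The *Notch* pathway genes described here are 10 genes chosen by name from 19938 genes measured on microarrays of the anterior heart field (AHF) in mouse embryos at E9.5. They comprise the ligands *Jag1*, *Jag2*, *Dll1* and *Dll4*, the receptors *Notch1* and *Notch2*, and the target genes *Hes1*, *Hey1*, *Hey2* and *Heyl*. All 10 were measured, each by 1 probe set that carries no other gene symbol, and none was lost to a filter.

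In *Notch* signaling a ligand of the Jagged or Delta-like family on a cell binds a receptor on its neighbour. The receptor is then cut, and its intracellular part enters the nucleus and joins the DNA-binding protein RBPJ, which turns on *Hes* and *Hey* genes. These encode basic helix-loop-helix repressors. In the embryo the pathway is known from the second heart field and outflow tract, the endocardium and arterial endothelium, the smooth muscle of arteries, the somites and the neural tube, where it keeps progenitors undifferentiated.

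The samples used here compare 3 mutants with their own controls, with 4 arrays per group and 24 arrays in all. The study also profiled embryos with gain of *Tbx1* or of *β-catenin* function, which are not among these samples. According to its methods some arrays of poor quality were left out, and 4 per genotype were analysed. In all 3 mutants the *Cre* recombinase was driven by the *Mef2c* AHF enhancer (*Mef2c-AHF-Cre/+*), so floxed alleles are lost in that lineage and not in the other cells of the dissected pharyngeal arches. *Tbx1 LOF* embryos carried *Mef2c-AHF-Cre/+* with *Tbx1* f/- or f/f. *β-cat LOF* embryos carried *Mef2c-AHF-Cre/+* with *β-catenin* f/f. Rescue embryos were *Tbx1 LOF* with 1 *β-catenin* allele floxed as well. According to the methods the controls were *Tbx1* f/+, *β-catenin* f/+ and *Tbx1* f/+;*β-catenin* f/+ embryos with no *Cre*, one genotype for each experiment, whereas the protocol in the labels names wild type and *Mef2c-AHF-Cre/+;Tbx1* f/+ littermates. Which of these the control arrays hold could not be settled. Each array held RNA of several pooled embryos. Nothing states whether the arrays of a group came from separate litters, so the p-values below measure the spread between these pools. The *Tbx1* f/f line and the *Mef2c-AHF-Cre/+* lines with a *Tbx1* allele were congenic in Swiss Webster. The *β-catenin* f/f line was of mixed C57Bl/6;Swiss Webster background. For rescue crosses the methods name *Tbx1* f/f;*β-catenin* f/f females, an inbred line derived from such a mixed background. To address strain background, they also name second crosses with *Tbx1* f/+;*β-catenin* f/+ females, which gave *Tbx1 LOF* and rescue littermates. No source used here says which crosses gave the embryos on the arrays. Strain, experiment and hybridization therefore cannot be told apart between the 3 control groups.

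The values are log2 intensities, from 3.62 to 14.56 over all probe sets, with array medians between 8.0 and 8.14. In the check of the labels, *Tbx1* averaged 11.27 in *Tbx1 LOF* and 11.92 in its controls (log2 fold change -0.64, limma adjusted p = 0.00626), and 11.47 in rescue and 11.78 in rescue controls (-0.31, adjusted p = 1.0). The *Tbx1 LOF* arrays all lay below their controls for *Tbx1*, but the adjusted p was 0.122 with the replicate number as a block and 0.185 with the experiment fitted alone. It was 0.0504 without the first mutant array, 0.0512 without the third control and 0.0534 without the last control. *Ctnnb1*, which encodes β-catenin, differed by -0.03 in *β-cat LOF* (adjusted p = 0.958), so it did not mark the arrays with that genotype. Of the AHF and pharyngeal mesoderm markers, *Isl1* lay between 10.47 and 10.93 and *Tbx1* between 10.98 and 11.99 over the 24 arrays. The tissue also held other cell types. *Pecam1* of endothelium lay between 9.35 and 10.06 and *Elavl3* of neurons between 8.06 and 9.83. In such bulk tissue fewer cells of a type and less RNA per cell cannot be told apart. Heart muscle markers stood far apart in the *β-cat LOF* controls, where the mean of 16 such genes, relative to all arrays, was 0.92, 2.32, 0.33 and 0.16.

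None of the 10 genes passed an adjusted p of 0.05 in any of the 3 mutants, where 0.0301% of all genes passed in *Tbx1 LOF* and 0% in both *β-cat LOF* and rescue. The lowest adjusted p-values were 0.376 in *Tbx1 LOF*, 0.855 in *β-cat LOF* and 1.0 in rescue. At an unadjusted p under 0.05, which the study used, *Heyl* alone passed, in *Tbx1 LOF*, where 4.12% of all genes passed (1.95% as lower), against 5.72% in *β-cat LOF* and 1.27% in rescue. For its plots of mutants against each other the study also asked for a fold change over 1.5. *Heyl*, at 0.797-fold, did not reach that size. The study's fit also blocked for batch, which the fit here did not. The median log2 fold change of the 10 genes was -0.08 in *Tbx1 LOF*, 0.01 in *β-cat LOF* and -0.02 in rescue, beside -0.01, 0.01 and -0.02 for all genes. In *Tbx1 LOF* 9 of the 10 had a negative fold change, in *β-cat LOF* 5 and in rescue 7. Some were as small as -0.01 in *Tbx1 LOF* (*Jag2* and *Hey1*). There *Jag2*, *Dll4*, *Notch1*, *Notch2* and *Hey1* turned positive when some single array was left out. The share of all genes in each direction was not counted, so these counts are a description only. The 95% confidence intervals bound the fold changes between 0.705 and 1.19 in *Tbx1 LOF*, between 0.693 and 1.52 in *β-cat LOF*, and between 0.76 and 1.33 in rescue.

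**Figure D1:**
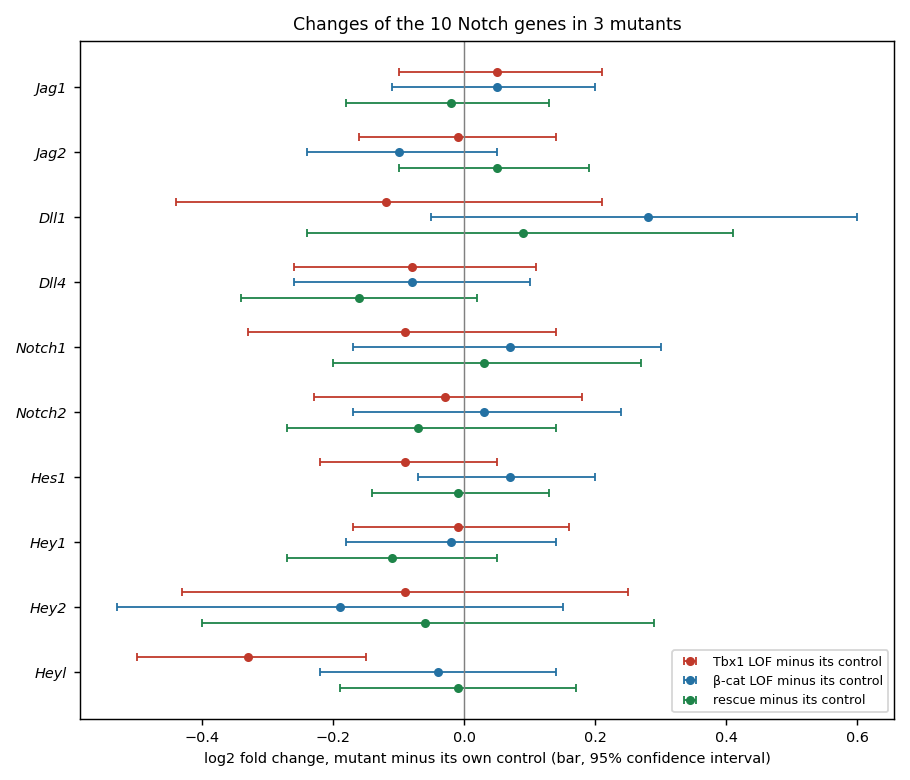
Log2 fold change of each *Notch* pathway gene in *Tbx1 LOF*, *β-cat LOF* and rescue, each as mutant minus its own control, with limma's 95% confidence interval (n = 4 arrays per group). Of the intervals shown, that of *Heyl* in *Tbx1 LOF* (-0.50 to -0.15) is the only one that leaves out 0.

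The target with the lowest p was *Heyl*, a Hey-family repressor known from vascular smooth muscle, pericytes and somites. *Heyl* was 8.52, 8.88, 8.88 and 8.91 in the 4 *Tbx1 LOF* arrays, against 9.26, 9.06, 9.03 and 9.15 in the 4 control arrays. All 4 mutant arrays lay below all 4 controls, as did 0.973% of all genes, and the nearest mutant and control arrays were 0.12 apart. A further 1.32% of all genes had all mutant arrays above all controls. The means were 8.80 ± 0.19 in *Tbx1 LOF* and 9.13 ± 0.10 in controls (SD, n = 4 each), a log2 fold change of -0.33 (SE 0.09) or 0.797-fold. The limma p was 0.000943 and the adjusted p 0.376, and the two-sided exact permutation test gave 0.0286, the smallest p that 4 arrays against 4 allow. The first mutant array was the low one: without it the log2 fold change was -0.233 (adjusted p = 0.999), and without the second it was -0.355 (adjusted p = 0.178).

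The other mutants lay closer to their controls for *Heyl*. In *β-cat LOF* it was 9.08, 9.04, 9.23 and 9.05, against 9.15, 9.03, 9.17 and 9.20 in controls (log2 fold change -0.04, 95% interval -0.22 to 0.14). In rescue it was 9.0, 9.01, 9.34 and 9.19, against 9.20, 8.99, 9.16 and 9.22 in rescue controls (-0.01, -0.19 to 0.17). The groups overlapped in both. The 3 control groups and both of these mutants had mean *Heyl* values between 9.10 and 9.14, so the *Tbx1 LOF* mean of 8.80 was the one that stood apart from the rest. Tested directly, the change in *Tbx1 LOF* was lower than that in *β-cat LOF* by a log2 difference of -0.29 (95% interval -0.54 to -0.04, limma adjusted p = 0.639), where 6.44% of all genes had an unadjusted p under 0.05. The change in rescue was higher than that in *Tbx1 LOF* by 0.32 (0.07 to 0.57, limma adjusted p = 1.0), where 1.71% of all genes had an unadjusted p under 0.05. Neither difference passed the adjusted threshold, where 0.0502% and 0% of all genes did. Without the first *Tbx1 LOF* array these differences were -0.195 (-0.42 to 0.03) and 0.226 (0.0 to 0.45). Between rescue and *β-cat LOF* no member's changes differed at an unadjusted p under 0.05, where 4.85% of all genes did (0% at the adjusted threshold), and for *Heyl* the difference was 0.03 (95% interval -0.22 to 0.28).

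*Hey2*, a repressor known from ventricular muscle and arterial endothelium, varied most between arrays of a group, with a residual SD of 0.257 against a median of 0.112 over all genes. It was 9.81, 9.79, 9.76 and 9.64 in *Tbx1 LOF*, against 9.82, 9.57, 10.08 and 9.89 in controls. The *Tbx1 LOF* arrays lay within the range of their controls, with a log2 fold change of -0.09 (SE 0.17). In *β-cat LOF* it was 9.77, 10.06, 10.22 and 9.88, against 9.75, 10.86, 9.96 and 10.11 in controls. The second control array was the high one, and it was also the array with the highest heart muscle mean, 2.32. The log2 fold change of -0.19 (SE 0.17, adjusted p = 0.881) became 0.043 without that array. In rescue *Hey2* lay between 9.81 and 9.97, within the range of 9.68 to 10.28 in rescue controls (-0.06, SE 0.17).

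*Hey1*, a related repressor of heart cushions, vessels and arches, was the only target with an unadjusted p under 0.05 between control groups. It was 11.21, 11.30, 11.38 and 11.42 in *Tbx1 LOF*, against 11.18, 11.11, 11.54 and 11.50 in controls, and the groups overlapped (log2 fold change -0.01, 95% interval -0.17 to 0.16). In *Tbx1* controls arrays 1 and 2 were low and 3 and 4 high. The fold change was 0.11 over arrays 1 and 2 and -0.12 over arrays 3 and 4. In *β-cat LOF* *Hey1* was 11.53, 11.56, 11.67 and 11.47, against 11.60, 11.50, 11.61 and 11.62 in controls (-0.02, -0.18 to 0.14). In rescue it was 11.50, 11.42, 11.43 and 11.48, against 11.59, 11.67, 11.46 and 11.56 in rescue controls. In 2 of the 4 rescue arrays it lay below all controls, and the fold change of -0.11 (SE 0.08, adjusted p = 1.0) had an interval of -0.27 to 0.05.

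*Hes1*, a repressor that many signals besides *Notch* induce, varied least, with a residual SD of 0.0892. It was 10.22, 10.34, 10.19 and 10.29 in *Tbx1 LOF*, against 10.30, 10.29, 10.36 and 10.45 in controls (-0.09, SE 0.07, adjusted p = 1.0). In *β-cat LOF* it was 10.44, 10.50, 10.49 and 10.29, against 10.42, 10.24, 10.37 and 10.43 in controls (0.07, SE 0.07, adjusted p = 0.893). In rescue the arrays lay between 10.25 and 10.34, within the range of 10.11 to 10.44 in rescue controls. The *Hes1* groups overlapped in all 3 experiments.

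**Figure D2:**
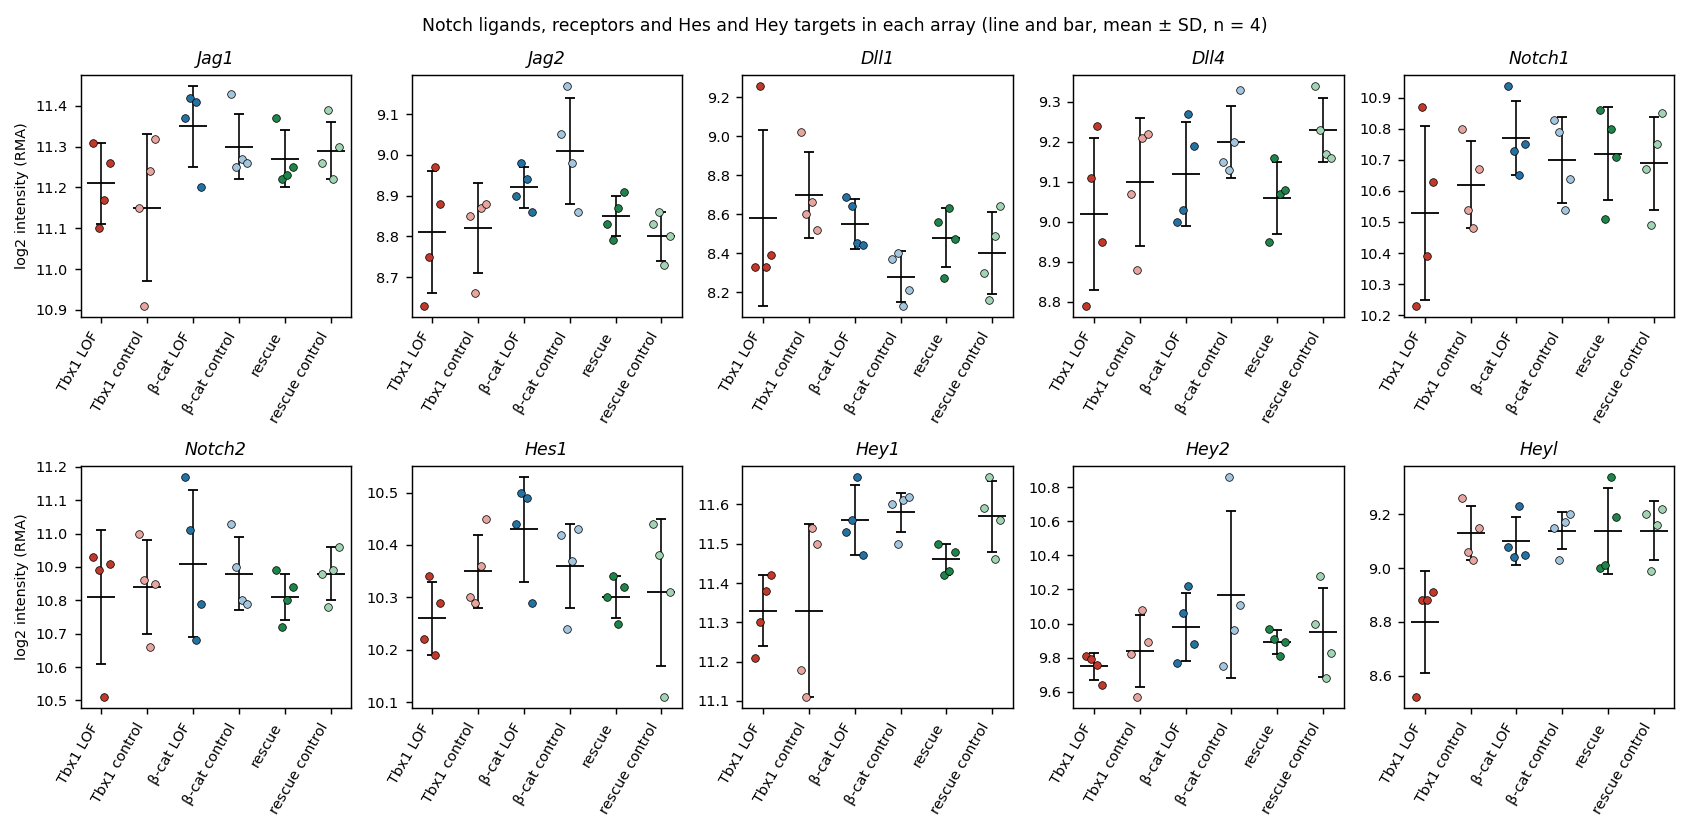
Log2 intensity of each *Notch* pathway gene in each array (points), with the group mean and SD (line and bar, n = 4), for *Tbx1 LOF*, *β-cat LOF* and rescue, each left of its own control. *Heyl* is lower in all 4 *Tbx1 LOF* arrays (8.52 to 8.91) than in their controls (9.03 to 9.26), and 1 *Tbx1 LOF* array stands out at 9.26 for *Dll1*.

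Among ligands, *Dll1* varied most between arrays. Delta-like 1 acts in somite boundaries and in neurogenesis, where newly formed neurons carry it. *Dll1* was 8.69, 8.64, 8.45 and 8.44 in *β-cat LOF*, against 8.37, 8.40, 8.13 and 8.21 in controls. All 4 mutant arrays lay above all 4 controls, as did 2.06% of all genes, with 0.0316 between the nearest arrays. The log2 fold change was 0.28 (SE 0.16, 95% interval -0.05 to 0.60, limma p = 0.0917, adjusted p = 0.855), and the exact permutation test gave 0.0286. The limma spread is that of all 6 groups, and in the 8 arrays of the experiment alone p was 0.00822 and the adjusted p 0.904.

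In *Tbx1 LOF* *Dll1* was 8.33, 9.26, 8.33 and 8.39, against 9.02, 8.60, 8.66 and 8.52 in controls. The second mutant array was above every control and the other 3 were below every control. With all arrays the difference was -0.12 on the log2 scale (SE 0.16, limma adjusted p = 1.0), and without the second it was -0.345 (95% interval -0.59 to -0.10, adjusted p = 0.438). It was -0.012 without the first control array, the high one at 9.02, and -0.038, -0.037 and -0.057 without mutant array 1, 3 or 4. In rescue *Dll1* was 8.56, 8.27, 8.63 and 8.47, against 8.30, 8.16, 8.49 and 8.64 in rescue controls, and the groups overlapped (0.09, SE 0.16). Tested directly, the change in *Tbx1 LOF* and that in *β-cat LOF* differed by -0.40 (SE 0.22, limma adjusted p = 0.862), and by -0.622 without that array (adjusted p = 0.0927).

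*Dll4*, the Delta-like ligand of arterial endothelium and endocardium, was 8.95, 9.16, 9.07 and 9.08 in rescue, against 9.34, 9.23, 9.17 and 9.16 in rescue controls. All 4 rescue arrays lay below all controls, as did 2.24% of all genes, but the nearest pair differed by only 0.002. The log2 fold change was -0.16 (SE 0.09, 95% interval -0.34 to 0.02, limma p = 0.0788, adjusted p = 1.0, exact permutation p = 0.0286). *Dll4* was 8.79, 9.11, 9.24 and 8.95 in *Tbx1 LOF*, against 9.07, 8.88, 9.21 and 9.22 in controls (-0.08, SE 0.09). It was 9.0, 9.03, 9.27 and 9.19 in *β-cat LOF*, against 9.15, 9.13, 9.20 and 9.33 in controls (-0.08, SE 0.09). The fold change was negative in all 3 mutants, and the groups of the last 2 overlapped. The mean of 16 endothelial and endocardial markers, relative to all arrays, was -0.04 in rescue and -0.04 in its controls, and 10 of the 16 had a positive fold change there.

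The Jagged ligands varied little between mutants and controls. *Jag1*, a ligand of the outflow tract, endothelium and smooth muscle, had log2 fold changes of 0.05 in *Tbx1 LOF*, 0.05 in *β-cat LOF* and -0.02 in rescue (SE 0.08 each). Its group means lay between 11.15 and 11.35. *Jag2*, a ligand of epithelia and limb ectoderm among other sites, had changes of -0.01, -0.10 and 0.05 in the same order (SE 0.07 each). It was 8.90, 8.98, 8.94 and 8.86 in *β-cat LOF*, against 9.05, 9.17, 8.98 and 8.86 in controls, where arrays 1 and 2 of the controls were the high ones. The mutant and control arrays of both ligands overlapped in all 3 experiments.

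The receptors likewise overlapped in all 3 experiments. *Notch1*, the main receptor of endothelium, endocardium and neural progenitors, was 10.23, 10.87, 10.39 and 10.63 in *Tbx1 LOF*, against 10.80, 10.54, 10.48 and 10.67 in controls (log2 fold change -0.09, SE 0.11). Its lowest and highest *Tbx1 LOF* arrays were the first and the second, and without the first the fold change was 0.008. In *β-cat LOF* it was 0.07 and in rescue 0.03 (SE 0.11 each). *Notch2*, a receptor of neural crest, smooth muscle and many epithelia, was 10.93, 10.89, 10.51 and 10.91 in *Tbx1 LOF*, against 11.00, 10.86, 10.66 and 10.85 in controls (-0.03, SE 0.10). The third array was the lowest in both groups. In *β-cat LOF* the change was 0.03 and in rescue -0.07 (SE 0.10 each).

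Levels were also compared between the 3 control groups. *Hey1* averaged 11.58 ± 0.05 in *β-cat LOF* controls, 11.57 ± 0.09 in rescue controls and 11.33 ± 0.22 in *Tbx1* controls (SD, n = 4 each). The log2 difference was 0.25 between *β-cat LOF* and *Tbx1* controls (95% interval 0.09 to 0.41, limma adjusted p = 0.149) and 0.24 between rescue and *Tbx1* controls (0.08 to 0.40, adjusted p = 0.634). Only *Tbx1* control arrays 1 and 2 were low (11.18 and 11.11). Arrays 3 and 4 (11.54 and 11.50) lay within the range of rescue controls, 11.46 to 11.67, so the difference does not hold for the whole group. *Jag2* was higher in *β-cat LOF* controls than in *Tbx1* controls by 0.20 (0.05 to 0.34, adjusted p = 0.211), and lower in rescue controls than in *β-cat LOF* controls, with a difference of -0.21 (-0.36 to -0.07, adjusted p = 0.208). *Dll1* was lower in *β-cat LOF* controls than in *Tbx1* controls, with a difference of -0.42 (-0.75 to -0.10, adjusted p = 0.233). At an unadjusted p under 0.05 these made 3, 1 and 1 of the 10 genes for *β-cat LOF* against *Tbx1* controls, rescue against *Tbx1* controls and rescue against *β-cat LOF* controls. The shares of all genes were 13.8%, 7.51% and 14.5%. No member passed an adjusted p of 0.05 between controls, where 0.562%, 0.0251% and 0.0652% of all genes did. Of the remaining members *Hey2* came closest, with 0.33 in *β-cat LOF* against *Tbx1* controls (-0.01 to 0.67).

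The deviation of each array from its group mean was then set beside markers of the other cell types in the tissue. These correlations are over 24 arrays, which share their experiment and their pooled tissue, and they are given as a description. Only some of the pairs of a member and a marker list are quoted, and no rule set in advance picked them. Among 14 neural tube and neuron markers the mean, relative to all arrays, was -0.54, 0.55, -0.14 and -0.13 in *Tbx1 LOF*, against 0.37, 0.08, 0.15 and 0.08 in controls. The first *Tbx1 LOF* array was thus the lowest of all and the second the highest. *Dll1* followed this mean with Pearson's r = 0.839 (Spearman's rho 0.736), and r was 0.725 without those 2 arrays. Within the experiments r was 0.913 in the *Tbx1* arrays, -0.443 in the β-cat arrays and 0.956 in the rescue arrays, so the relation did not hold in all 3. *Notch1* had r = 0.766 (rho 0.625), 0.582 without those 2 arrays, and 0.891, -0.183 and 0.879 within the *Tbx1*, β-cat and rescue arrays. *Heyl* had r = 0.671 (rho 0.616), 0.658 without them, and 0.683, 0.506 and 0.83 within the 3 experiments. *Dll1* and *Notch1* also followed each other (r = 0.83).

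All 14 neural markers had a negative fold change in *Tbx1 LOF* (2 at an unadjusted p under 0.05, median -0.19), 12 of 14 had a positive one in *β-cat LOF* (4 at that threshold, median 0.17) and 13 of 14 in rescue (none, median 0.24). Somite and neural crest markers went mostly the same way as the neural ones in *Tbx1 LOF* and *β-cat LOF*, but not in rescue. Of 13 somite and presomitic mesoderm markers 10 had a negative fold change in *Tbx1 LOF* (5 at that threshold, median -0.19), 11 a positive one in *β-cat LOF* (1, median 0.07) and 9 a negative one in rescue (none, median -0.05). Of 8 neural crest markers 7 were negative in *Tbx1 LOF* (2 at that threshold, median -0.16), 8 positive in *β-cat LOF* (2, median 0.15) and 6 negative in rescue (none, median -0.05). Over the arrays *Dll1* had r = 0.358 with the somite mean and -0.222 with the neural crest mean, and *Heyl* had 0.329 and 0.464. For *Heyl* and neural crest r was 0.789, 0.629 and 0.19 within the *Tbx1*, β-cat and rescue arrays. The part of neural, somite or neural crest tissue in the values of *Dll1* and *Heyl* was not tested. With the first and second *Tbx1 LOF* arrays both left out, a choice made after seeing the data, *Heyl* had a log2 fold change of -0.23 (95% interval -0.42 to -0.04, limma adjusted p = 0.32) and *Dll1* of -0.336 (-0.62 to -0.06, adjusted p = 0.326).

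*Hey2* followed the mean of the 16 heart muscle markers with r = 0.67 (rho 0.397), and r was 0.435 without the *β-cat LOF* control arrays 2 and 4, which lay farthest from the median. Within the *Tbx1*, β-cat and rescue arrays r was 0.281, 0.672 and 0.875. The dissection, according to the study, left out the heart tube. The 16 markers had positive fold changes in *Tbx1 LOF* (16 of 16, median 0.72) and negative ones in *β-cat LOF* (16 of 16, median -1.07), while *Hey2* differed by -0.09 and -0.19. *Dll4* ran against the mean of 9 liver and gut markers (r = -0.755, rho -0.755), with -0.967, -0.652 and -0.233 within the *Tbx1*, β-cat and rescue arrays. That mean was 0.89, 0.49, 0.05 and 0.80 in *Tbx1 LOF*, against 0.03, 0.39, -0.19 and -0.25 in controls. The 9 liver and gut markers were low, with medians from 6.07 (*Fgg*) to 8.31 (*Apoa2*), where the lowest array median was 8.0. *Jag1* and *Hey1* ran against the mean of the 13 somite markers. For *Jag1* r was -0.751 (rho -0.633), -0.576 without *Tbx1* control arrays 2 and 4, and -0.918, -0.0238 and -0.969 within the *Tbx1*, β-cat and rescue arrays, so it did not hold in the β-cat arrays. For *Hey1* r was -0.699 (rho -0.606), -0.522 without those 2 arrays, and -0.707, -0.542 and -0.829 within the 3 experiments. *Notch1*, *Notch2* and *Dll1* ran against the mean of 13 AHF and pharyngeal mesoderm markers, with r of -0.71, -0.692 and -0.651 (rho -0.733, -0.615 and -0.649). Each of these was negative within every experiment, between -0.584 and -0.865 for *Notch1*, -0.665 and -0.909 for *Notch2*, and -0.58 and -0.813 for *Dll1*. *Hey1* and *Dll4* went the other way, with r of 0.58 and 0.512 (rho 0.625 and 0.548). Within the *Tbx1*, β-cat and rescue arrays r was 0.65, 0.685 and 0.445 for *Hey1*, and 0.516, 0.61 and 0.426 for *Dll4*. Over all arrays *Jag1* (0.42), *Hey2* (0.314), *Jag2* (0.309) and *Hes1* (0.247) were positive as well, and *Heyl* had -0.0887. The AHF mean lay between -0.18 and 0.01 in *Tbx1 LOF*, against -0.06 to 0.07 in controls. This list includes *Tbx1* itself, the gene deleted in these mutants, with a log2 fold change of -0.64 there. The part of muscle, liver, gut, somite or mesoderm tissue in these values was not tested. In endothelium, where *Dll4*, *Notch1*, *Hey1* and *Hey2* are known to act, 15 of 16 markers had a negative fold change in *β-cat LOF* (median -0.15, 7 at an unadjusted p under 0.05), against 7 of 16 in *Tbx1 LOF* (median 0.01, none).

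**Figure D3:**
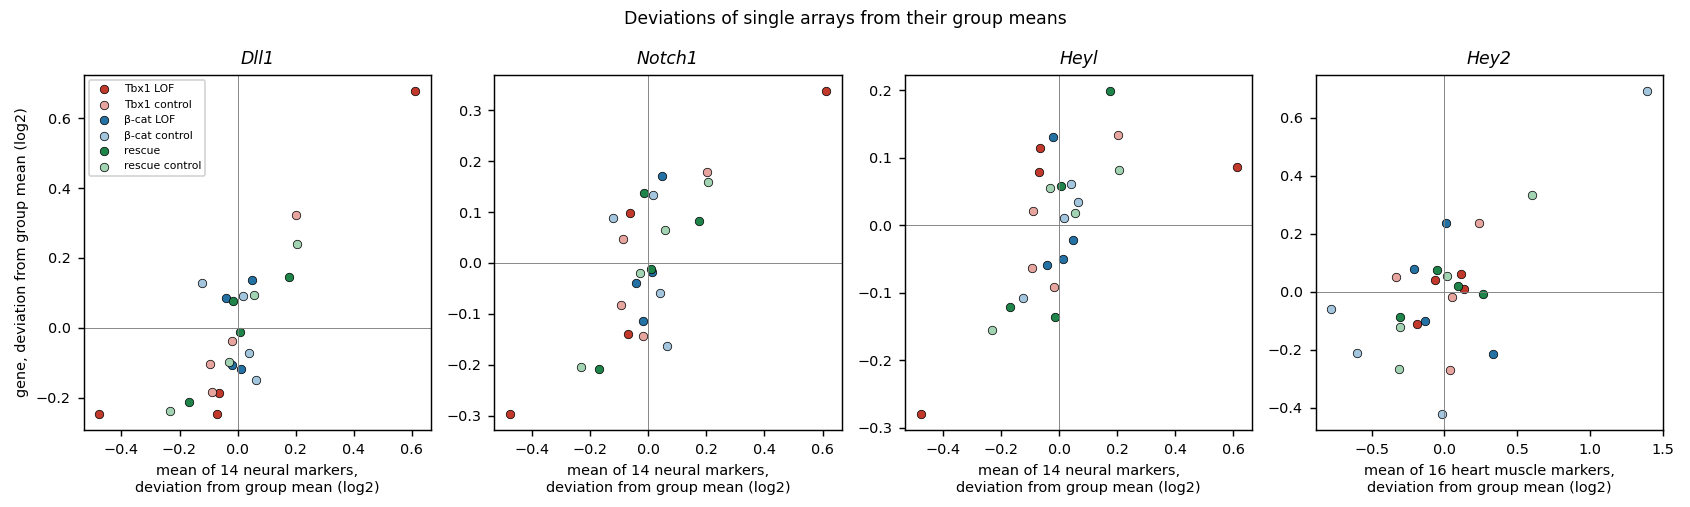
Deviation of each array from its group mean for *Dll1*, *Notch1* and *Heyl* (y axes, log2) against that of 14 neural tube and neuron markers, and for *Hey2* against that of 16 heart muscle markers (x axes, log2), with 1 point for each of 24 arrays. The first and second *Tbx1 LOF* arrays lie at the ends of the neural axis, and the second *β-cat LOF* control array lies at the end of the muscle axis.

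The genes whose array deviations were most like those of each member, among 9969 genes above the median level, were listed for each. For *Dll1* they were *Elavl3* (r = 0.913), *Itgb8* (0.898) and *Clvs1* (0.894), and for *Notch1* they were *Celsr2* (0.852), *Elavl3* (0.827) and *Ebf1* (0.817). For *Heyl* they were *Depp1* (0.836), *Pdgfrb* (0.828), the receptor that marks pericytes and smooth muscle, and *Neurog1* (0.796), a neurogenic factor. *Elavl3* and *Neurog1* are on the neural list. *Notch2* had the closest match of all 10, *Lama1* (0.956), before *Flna* (0.929) and *Mcm3ap* (0.928). For *Hey1* they were *Spred2* (0.92), *Daam2* (0.882) and *Mrpl37* (0.868), for *Hey2* *Perp* (0.859), *Ddah1* (0.859) and *Sorbs2* (0.852), and for *Hes1* *Pisd-ps2* (0.882), *Zfp62* (0.846) and *Ppp4r3a* (0.841). For *Jag1* they were *Plekhg3* (0.857), *Itga3* (0.817) and *Grhl2* (0.805), for *Jag2* *Plxnd1* (0.879), *Gpn2* (0.831) and *H2aw* (0.818), and for *Dll4* *Mbd3* (0.831), *Tmem222* (0.82) and *Otub1* (0.801). These are the highest of many correlations over 24 arrays.

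Of 63 other genes of the pathway, 60 were measured and none passed an adjusted p of 0.05 in any mutant. At an unadjusted p under 0.05 there were 4 in *Tbx1 LOF* (6.67%, 3 higher and 1 lower), 6 in *β-cat LOF* (10%, 4 higher and 2 lower) and 0 in rescue, beside 4.12%, 5.72% and 1.27% of all genes. The median log2 fold change of the 60 was -0.03, 0.03 and -0.01. Of 15 measured genes of the nuclear complex and its corepressors, 1 was among these, *Kat2b*, a histone acetyltransferase, with -0.23 in *β-cat LOF* (adjusted p = 0.854). Its second control array, the one with the highest heart muscle mean, was 7.68 where the other controls were 7.12 to 7.17, and the difference was -0.097 without it.

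In *Tbx1 LOF*, *Dlk1*, a non-canonical ligand, was 13.12, 12.80, 12.95 and 13.04, against 12.77, 12.90, 12.62 and 12.68 in controls. The log2 fold change was 0.24 (SE 0.06, limma adjusted p = 0.398), and only the second mutant array lay below the highest control. *Neurl1b*, an E3 ubiquitin ligase that acts on ligands, was 8.79, 8.38, 8.70 and 8.45, against 8.33, 8.32, 8.37 and 8.18 in controls, with no overlap, as for 1.32% of all genes in this direction (0.28, SE 0.10, adjusted p = 0.795). *Furin*, a protease that matures the receptors, differed by 0.17 in *Tbx1 LOF* and by -0.16 in *β-cat LOF* (adjusted p = 1.0 and 0.854). Without the second control array of each experiment these became 0.099 and -0.092. *Hes3*, a neural repressor, differed by -0.13 in *Tbx1 LOF* and by 0.16 in *β-cat LOF* (adjusted p = 1.0 and 0.844). Its level was low, with means of 6.69 and 6.82 in *Tbx1 LOF* and its controls. In *β-cat LOF* and its controls they were 6.85 and 6.70, and the lowest array median was 8.0. The filter at the lower quartile removed it.

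In *β-cat LOF*, *Dtx4*, an E3 ubiquitin ligase of the Deltex family, was 10.10, 10.01, 10.02 and 10.07, against 9.72, 9.41, 9.75 and 9.87 in controls. All 4 mutant arrays lay above the controls, as did 2.06% of all genes (0.36, SE 0.12, adjusted p = 0.745). *Lfng*, a glycosyltransferase that changes which ligands a receptor answers to, was 9.76, 9.76, 9.92 and 9.83, against 9.41, 9.25, 9.70 and 9.67 in controls. These groups did not overlap either, with the same share of all genes beside it (0.31, SE 0.14, adjusted p = 0.854). *Hes5*, a target of *Notch* in neural progenitors, was 9.64, 9.17, 9.43 and 9.78, against 9.19, 9.16, 9.09 and 9.23 in controls, and overlapped through its second mutant array (0.34, SE 0.16, adjusted p = 0.854).

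**Figure D4:**
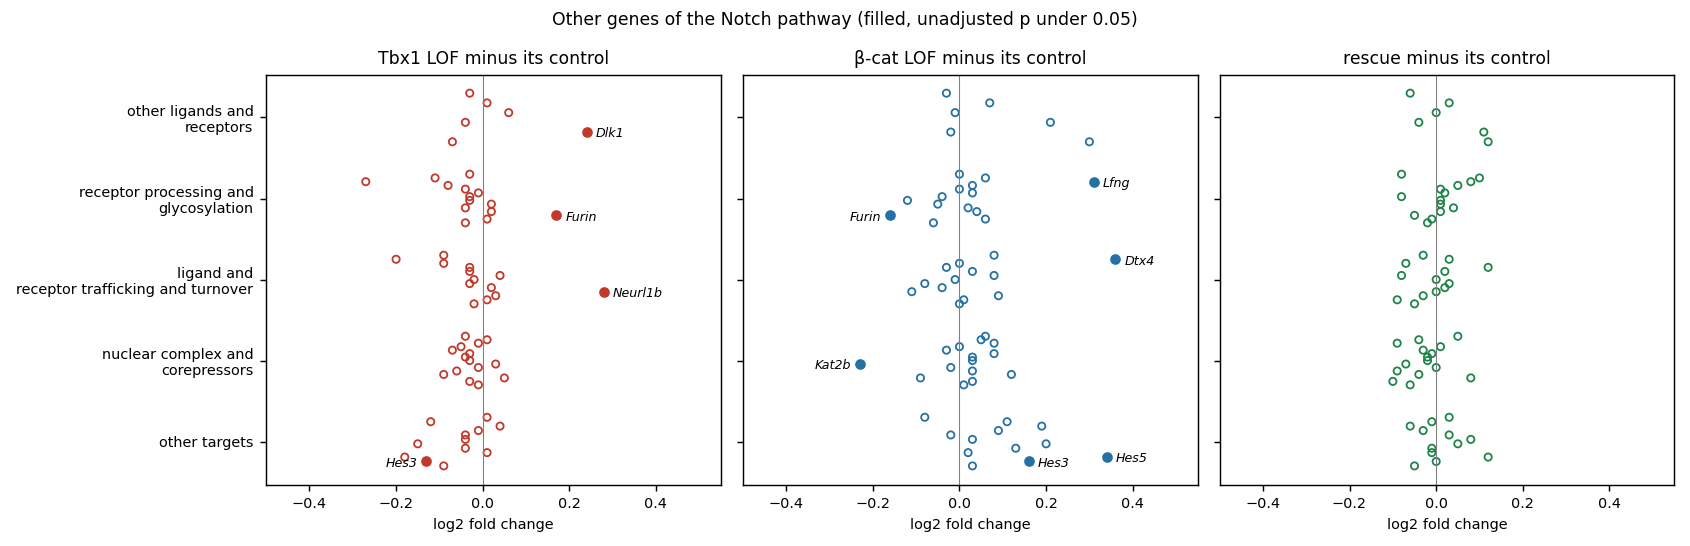
Log2 fold change of 60 other *Notch* pathway genes by role, in *Tbx1 LOF*, *β-cat LOF* and rescue, each minus its own control. Filled points have an unadjusted limma p under 0.05 (4 in *Tbx1 LOF*, 6 in *β-cat LOF* and 0 in rescue), and none passes an adjusted p of 0.05.

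Promoter windows of 300 bases, 250 before the transcription start and 50 after it, were read from the RefSeq table of build GRCm38.p6 for 7 of the 10 genes (8 windows, since *Dll1* has 2). Those of *Hes1*, *Hey1* and *Heyl* were not analysed here. On both strands 4 motifs were searched: GTGGGAA, the core bound by RBPJ, GGTGTGA, the core of a T-box site, CTTTGAT, the core of TCF and LEF factors that act with β-catenin, and CACGTG, an E-box. Only GTGGGAA was in any member's window, in that of *Hey2*, and 6.38% of all 32851 windows hold it. The others are in 3.98%, 3.73% and 7.15% of all windows. The *Hey2* window, on the minus strand at chr10:30842734-30843033, is shown because it holds this motif 2 times, with the motif letters in capitals. The copy on the opposite strand (read here as TTCCCAC) lies 207 to 201 bases before the start, and the other begins 4 bases before the start and ends 3 bases into the transcript.
Hey2: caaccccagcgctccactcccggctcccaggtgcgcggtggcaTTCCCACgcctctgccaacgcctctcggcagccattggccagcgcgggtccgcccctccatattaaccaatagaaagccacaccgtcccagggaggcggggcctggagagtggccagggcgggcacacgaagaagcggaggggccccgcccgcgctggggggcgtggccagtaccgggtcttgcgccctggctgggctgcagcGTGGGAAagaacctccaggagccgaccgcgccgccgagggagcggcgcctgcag
A match is a description of these letters and not of binding. The GC content of this window was 72.0%, and that of the 8 windows lay between 55.7% and 86%. *Hey2* itself, the gene next to this window, differed by -0.09, -0.19 and -0.06 in *Tbx1 LOF*, *β-cat LOF* and rescue, none of which passed the test.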

How the data were processed

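RNA from pooled AHF tissue of embryos at E9.5 (19 to 21 somite pairs) was amplified from 100 ng and hybridized to Affymetrix mouse Gene ST arrays, 4 per group. The deposited log2 values were made by the authors with RMA in oligo (background correction, quantile normalization, summarization; neither its version nor a genome build was given). According to the methods, clustering showed clear batch effects, most of all in the *β-cat LOF* and *Tbx1 LOF* data. ComBat and a batch block are also named there. No source used here ties arrays to batches or says if ComBat shaped these values, so no batch term was fitted. The number of arrays limits the precision.

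Of 35556 probe sets, 21789 with 1 gene symbol in the platform annotation were kept and averaged per gene (19938 genes), while 1621 with more symbols and 12146 without any were dropped. Gene identifiers tied 19856 of the symbols to the RefSeq table. A single limma fit (3.58.1, R 4.3.3) of 6 group means, without a filter or other covariate, tested each difference as mutant minus its own control, with moderated standard errors and Benjamini-Hochberg adjustment over all genes. Changes were also compared between mutants and levels between control groups. Permutation tests were exact and two-sided. The fit was tested on simulated data. Promoter motifs were matched exactly.

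The members and the gene lists were chosen with earlier results of these data known. All 10 members are named, other pathway genes where the unadjusted p was under 0.05 (up to 4 by size in each direction), and the 3 genes most like each member. Markers quoted by level (*Isl1*, *Pecam1*, *Elavl3*) and the *Tbx1 LOF* arrays left out together were chosen after their values were seen, as were the other settings for *Tbx1* and the named pathway genes.

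Replicate numbers recur between mutants and controls. Same-numbered arrays of the *Tbx1* experiment deviated together (r from 0.157 to 0.494). Only 1 of 4 mutant arrays correlated best with its own number, and the others had r of 0.403 to 0.431 with another number. Whether the numbers pair arrays is therefore not settled. The fit reported and the permutation tests treat the arrays as unpaired, and the replicate block is given as an alternative. Alternatives were the replicate block, arrays 1 and 2 against 3 and 4 as a term, each experiment alone, the highest probe set, a filter at the lower quartile, median scaling, another prior, array weights and leaving out each array.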

Additional observations from a re-analysis of the deposited data

Results flagged for a closer look

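In each group of 4 arrays the gap between the farthest array and its nearest neighbour was set against the range of the group, for 10 genes in 6 groups. By chance such a test flags about 5% of groups, and it flagged 5 of 60 here. Of these, 3 were in *Tbx1 LOF*. *Heyl* was 8.52 in the first *Tbx1 LOF* array, against 8.88 to 8.91 in the other arrays. *Dll1* was 9.26 in the second *Tbx1 LOF* array, against 8.33 to 8.39. *Notch2* was 10.51 in the third, against 10.89 to 10.93. Among control arrays, *Jag2* was 8.66 in the second *Tbx1* control, where the others were 8.85 to 8.88, and *Jag1* was 11.43 in the first *β-cat LOF* control, where the others were 11.25 to 11.27. The first and second *Tbx1 LOF* arrays also held the lowest and the highest mean of the neural markers, -0.54 and 0.55. The part of neural tissue in the *Heyl* and *Dll1* values was not tested.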

How the results depend on the processing

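None of the 10 genes passed an adjusted p of 0.05 under any of the 141 counts made with other settings. Of 610 refits of single genes, 577 kept their direction, 33 turned it and none crossed the adjusted threshold. Many of these could not turn it, since their settings leave the differences between group means unchanged. These settings are the replicate block, arrays 1 and 2 against 3 and 4 as a term, and the experiment alone. The filter, the other prior and the highest probe set (1 per member) are the others, so the 577 do not measure stability. *Heyl* in *Tbx1 LOF* stayed between -0.365 and -0.23 (limma p from 0.000467 to 0.0193, adjusted p from 0.147 to 0.999). With the replicate block in the *Tbx1* experiment it was -0.327 (adjusted p = 0.355), and the block called 0 members in each of the 6 comparisons it could be fitted to and 0, 2 and 0 of all genes in *Tbx1 LOF*, *β-cat LOF* and rescue, against 6, 0 and 0 without it. Over all settings these counts of all genes ran from 0 to 32, 0 to 42 and 0 to 1, and that for *Tbx1 LOF* against *β-cat LOF* from 0 to 169 (10 in the fit reported). Besides *Heyl*, 5 changes had an unadjusted limma p under 0.05 under some setting. With the experiment alone p was 0.00822 for *Dll1* in *β-cat LOF*, and 0.0185 for *Dll4* and 0.0473 for *Hey1* in rescue. With array weights these passed that unadjusted threshold as well (adjusted p = 0.954, 0.776 and 0.732), and so did *Dll4* in *Tbx1 LOF*, at -0.211 (adjusted p = 0.693). *Dll4* in rescue also had 0.0361 with arrays 1 and 2 against 3 and 4 as a term. *Dll1* in *Tbx1 LOF* had 0.00708 without the second mutant array and 0.0208 without the first and second. *Tbx1* itself in *Tbx1 LOF* passed the adjusted threshold under 11 of 17 settings (adjusted p from 0.00374 to 0.185).

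Array weights turned *Jag1* (-0.003) and *Notch2* (0.077) in *Tbx1 LOF* and *Heyl* in rescue (0.003). Without *Tbx1 LOF* arrays 1 and 2, a setting chosen after seeing the data, *Jag2* was 0.11 and *Hey1* 0.065. Leaving out single arrays also turned directions. In *Tbx1 LOF* the log2 fold changes then ran from -0.027 to 0.11 for *Jag1*, -0.065 to 0.05 for *Jag2*, -0.147 to 0.002 for *Dll4*, -0.204 to 0.008 for *Notch1*, -0.089 to 0.072 for *Notch2* and -0.079 to 0.064 for *Hey1*. In *β-cat LOF* they ran from -0.053 to 0.109 for *Notch2*, -0.061 to 0.006 for *Hey1* and -0.329 to 0.043 for *Hey2*. In rescue they ran from -0.058 to 0.009 for *Jag1*, -0.035 to 0.102 for *Notch1*, -0.073 to 0.036 for *Hes1*, -0.144 to 0.055 for *Hey2* and -0.073 to 0.038 for *Heyl*. The cause was not tested. With 4 arrays per group, changes of the size seen in most members lay within the spread between arrays.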
